A study of Homo sapiens with 8 samples.

Results

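The 49 genes described here act in G2 phase and mitosis. They were taken as a list of gene names and found as every probe, controls left out, that carried such a name in the annotation of the arrays. All 49 were on the arrays, which hold 34423 gene names in all, and they were represented by 62 probes, with 38 genes on 1 probe, 9 on 2 and 2 on 3. The rule used names only and no measured value. Each of the 49 genes had a tested probe, and its brightest tested probe was well above background on all 8 arrays.

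Expression was measured on one-color arrays in the human colorectal cancer line HCT116, from which 4 stable clones had been made. CONT1 and CONT2 carried a plasmid with a negative control miRNA (miR-neg). TET1-KD1 and TET1-KD2 carried the artificial miRNAs miTET1-1 and miTET1-2 against *TET1*, which encodes an enzyme that oxidizes 5-methylcytosine. Each clone was analyzed untreated and after 72 h with 1 µM 5-aza-dC (5-aza-2'-deoxycytidine), a nucleoside analog that traps DNA methyltransferases, with medium and drug renewed every 24 h. All 4 clones had been selected in 0.6 mg/ml G418, so controls and knockdown clones shared transfection and selection. Each condition therefore held 2 arrays from 2 different clones, and both knockdown clones carried different miRNAs, so a p-value here measures the spread between these clones. By their titles, the arrays pair an untreated with a treated culture of each clone, whereas the treatment entry of the labels reads mock on every control array and 5-aza-dC on every knockdown array. The titles were followed.

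Entry into mitosis is driven by CDK1 bound to cyclin B, which CDC25 phosphatases switch on. Aurora and Polo-like kinases, kinesins and kinetochore proteins then build the spindle, and the spindle checkpoint holds back the anaphase-promoting complex until the chromosomes are attached. Most of these genes are transcribed late in the cell cycle, through promoters that bind the MuvB complex at cell cycle homology regions (CHR) and NF-Y at CCAAT boxes, with B-MYB (*MYBL2*) and FOXM1 as activators. Their mRNA levels in a bulk culture follow the share of cells in G2 and M, and fewer such cells and less RNA per cell cannot be told apart in these data.

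The promoters show what the list shares in sequence. RefSeq promoter windows (GRCh38.p14) were matched by symbol for 42 members, and *AURKA*, *BIRC5*, *BUB3*, *FOXM1*, *TPX2*, *TTK* and *UBE2C* had no entry. The 10 windows below hold the 100 bases before the start site of members that fell in the treated control clones (*PLK1*, *NEK2*, *MAD2L1*, *CENPA*, *KIF11*, *KIF18A*, *CDC20*), of both that rose there (*CENPF*, *ASPM*) and of *CCNB1*. They are written 5' to 3' on the strand of the gene. Capitals mark TTTGAA and TTTAAA (CHR elements) and CCAAT, on either strand, so that TTCAAA and ATTGG are the same motifs read from the other strand.
PLK1 (chr16:23678789-23678888, plus strand): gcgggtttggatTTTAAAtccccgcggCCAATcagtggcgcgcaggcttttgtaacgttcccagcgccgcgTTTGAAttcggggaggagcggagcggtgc
NEK2 (chr1:211675622-211675721, minus strand): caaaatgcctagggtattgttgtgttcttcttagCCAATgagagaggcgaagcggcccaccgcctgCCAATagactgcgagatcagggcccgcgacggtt
MAD2L1 (chr4:120066849-120066948, minus strand): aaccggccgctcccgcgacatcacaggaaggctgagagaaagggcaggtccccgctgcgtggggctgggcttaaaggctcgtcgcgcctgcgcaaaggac
CENPA (chr2:26785956-26786055, plus strand): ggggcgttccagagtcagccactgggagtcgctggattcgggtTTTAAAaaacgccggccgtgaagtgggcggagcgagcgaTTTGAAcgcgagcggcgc
KIF11 (chr10:92593030-92593129, plus strand): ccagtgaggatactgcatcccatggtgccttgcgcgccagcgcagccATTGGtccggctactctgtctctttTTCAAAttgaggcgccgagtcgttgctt
KIF18A (chr11:28108157-28108256, minus strand): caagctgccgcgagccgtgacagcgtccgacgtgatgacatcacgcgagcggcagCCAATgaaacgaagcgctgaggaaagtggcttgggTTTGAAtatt
CDC20 (chr1:43358881-43358980, plus strand): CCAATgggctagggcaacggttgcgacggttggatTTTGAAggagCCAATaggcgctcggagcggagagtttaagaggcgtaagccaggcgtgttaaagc
CENPF (chr1:214603095-214603194, plus strand): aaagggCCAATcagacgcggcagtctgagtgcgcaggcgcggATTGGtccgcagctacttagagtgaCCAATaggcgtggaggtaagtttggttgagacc
ASPM (chr1:197146670-197146769, minus strand): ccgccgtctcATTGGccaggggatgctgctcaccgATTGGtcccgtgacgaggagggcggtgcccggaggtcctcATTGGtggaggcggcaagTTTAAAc
CCNB1 (chr5:69167050-69167149, plus strand): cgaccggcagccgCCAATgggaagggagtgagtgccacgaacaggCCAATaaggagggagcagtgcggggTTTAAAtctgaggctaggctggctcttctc

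For each gene the window with the lowest genomic start was used. TTTGAA lay within these 100 bases in 17 of the 42 member promoters (40.5%). The share was 4.76% over the promoters of all 27305 genes in the table, and 0 of 39 for G1/S and DNA replication genes. CCAAT was found in 27 members (64.3%) and in 18.5% of all promoters. TTTGAA and CCAAT occurred together in 13 members (31.0%) and in 0.93% of all promoters, counting overlaps such as the single base that TTTGAA and ATTGG share in *CDCA8* and *MKI67*. TTTAAA was found in 8 members (19.0%) and in 4.12% of all promoters. Of the windows printed, those of *PLK1*, *KIF11*, *KIF18A* and *CDC20* held TTTGAA and CCAAT, *CENPA* held TTTGAA and TTTAAA, *NEK2* held CCAAT alone and *MAD2L1* held none of the 3. The windows of *CENPF* and *ASPM* held CCAAT, with TTTAAA in *ASPM*, and no TTTGAA. The 17 members with TTTGAA within 100 bases had a median log2 change with 5-aza-dC of -0.36 in the control and -0.28 in the knockdown clones, and the 25 without it had -0.10 and -0.10. This gap was not seen over the 250 bases before the start, where 22 members with TTTGAA had medians of -0.24 and -0.22 and 20 without it had -0.26 and -0.26. The 27 members with CCAAT within 100 bases had medians of -0.10 and -0.18, and the 15 without it -0.36 and -0.30. These medians are a description, and motif and response were not tested against each other.

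Signals are given as log2 of the intensity after scaling each array to its 75th percentile, and changes as differences of these log2 values. Changes were tested with limma over 27287 probes, and a gene counts as called at an adjusted p below 0.05 for its brightest tested probe, over 19688 gene names. *TET1*, the targeted gene, had on its brightest probe untreated log2 signals of 9.70 and 9.75 in CONT1 and CONT2 and of 8.65 and 9.41 in TET1-KD1 and TET1-KD2. The knockdown clones lay below both control clones, but the log2 difference of -0.69 did not pass the test (SE 0.29, adjusted p = 0.61). A dimmer *TET1* probe gave -0.98 (adjusted p = 0.585). The third, well above background on only 2 of 8 arrays, gave -2.14 (SE 0.41, adjusted p = 0.37), again with both knockdown clones below both control clones. After 5-aza-dC the log2 signal of the brightest *TET1* probe was 9.64 in both control clones, 8.99 in TET1-KD1 and 9.48 in TET1-KD2. Both treated control arrays came from a second slide scanned 230 days after the other 6 arrays, so the treatment of the control clones and the slide cannot be told apart. The knockdown clones, treated and untreated, and the untreated control clones lay on the first slide. Of 10 control RNAs spiked into every sample, 7 were well above background, and of these the 5 in the range of brightness of the members differed by -0.57 to 0.16 on the log2 scale between the second and the first slide, with the dimmest lowest (SD on the first slide 0.06 to 0.11, n = 6). Of 9 markers of colorectal epithelium, 6 were well above background on all arrays. Of the markers of other cell types, this held for 2 of 6 for fibroblasts, 2 of 4 for leukocytes and 0 of 4 for endothelium. The summed signal of the epithelial markers was 327000 to 360000 on the untreated and 328000 to 396000 on the treated arrays. The sums of the other lists were far smaller. That of the fibroblast markers was 598 to 836 on the untreated and 1860 to 2440 on the treated arrays. For the leukocyte markers it was 110 to 166 and 391 to 1600, and for the endothelial markers 101 to 120 and 197 to 291. *COL1A2*, *COL3A1* and *KDR* were at background on every array. The fibroblast marker *THY1*, well above background on 4 of 8 arrays, had log2 signals of 2.25 to 2.65 untreated and of 8.09 to 9.79 treated. The part of these markers in the results below was not tested.

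In the treated control clones, which also lay on another slide, 8 members were called lower and 2 higher than in the untreated ones, and 32 of 49 members differed by less than 0.5 log2 units. The transcription factor *FOXM1*, the kinases *PLK1* and *NEK2*, the checkpoint gene *MAD2L1*, the centromeric histone *CENPA*, the motor genes *KIF11* and *KIF18A* and the anaphase activator *CDC20* fell, and *CENPF* and *ASPM* rose. Among all gene names 21.3% were called lower and 20.5% higher in this comparison, so 8 of 49 lower and 2 of 49 higher are both smaller shares than the background. For the share called lower, this order turned with the processing. With the GC trend removed and each array's centre kept, 12 of 49 members were called lower, against 20.6% of all probes. With normexp 12 of 49 members were called lower, against 4815 of 27287 probes. The largest change of a called member was a 2.73-fold fall, of *KIF18A*. The median log2 change of the members was -0.26, against -0.05 over all gene names, and 33 of 49 lay below 0, against 52.1% of all. A change of over 1 log2 unit was seen in 3 members (6.12%) and in 31.5% of all gene names. The members were all well above background on every array, while the gene names include dimmer ones that were so in 1 condition only. Of 20959 probes above background on all arrays, 3210 were called higher and 4960 lower in a fit of these alone. Of all 27287 tested probes, 5234 and 6168 were. In the fit of the brighter probes, 3 members were called higher and 10 lower. The members were not compared with gene names of like brightness. With the clone as a block, 11 members were called lower and 4 higher, and the shares over all probes also grew, to 27.1% and 23.3%. On spike-in scaling the members' median was 0.04 while that of all probes was 0.38, and 21 of 49 members lay below 0.

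In the knockdown clones, 44 of 49 members lay below 0 after 5-aza-dC, and 1, *FOXM1*, passed the test. Under the other scalings tried, 30 to 48 of 49 lay below 0. Of all gene names 3.09% were called lower and 9.45% higher, against 1 of 49 and 0 of 49 members. At an unadjusted p below 0.05, limma gave 7 of 49 members lower and 0 higher, against 13.1% and 15.9% of all gene names, so the share lower was near the background. The methods' t-test with Benjamini-Hochberg adjustment called 0 members and also 0 of all probes, and its count therefore says nothing about the members. The median log2 change was -0.23, against -0.06 over all gene names, of which 55.5% lay below 0. The changes ran from -0.96 for *KIF11* to 0.26 for *NUF2*, and none exceeded 1 log2 unit, against 15.4% of all gene names. Here too the gene names include dimmer ones than the members. Of 20959 probes above background on all arrays, 612 were called higher and 579 lower in a fit of these alone. Of all 27287 tested probes, 2430 and 790 were. In the fit of the brighter probes, 0 members were called higher and 1 lower. Under quantile normalization the median over the members was -0.11 and that over all probes -0.12. All 4 arrays of this comparison lay on 1 slide.

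Among the cyclins, CDK1 and its activators, no member passed the test in either kind of clone. *CCNB1*, which encodes cyclin B1, the partner of CDK1 at mitotic entry, had log2 signals of 13.70 in CONT1 and 13.87 in CONT2 untreated and of 14.16 and 14.28 after treatment, and of 13.68 in TET1-KD1 and 13.62 in TET1-KD2 untreated and 13.77 and 13.52 treated. Both treated control arrays lay above both untreated ones (log2 change 0.43, SE 0.16, adjusted p = 0.071, and 0.0496 with the clone as a block), while the knockdown arrays overlapped (log2 change -0.01, 95% interval -0.39 to 0.38). A dimmer *CCNB1* probe had log2 changes of 0.13 in the control (adjusted p = 0.785) and -0.28 in the knockdown clones (adjusted p = 0.645). *CDK1*, the mitotic kinase itself, read 11.88 and 12.06 untreated against 12.01 and 12.18 treated in CONT1 and CONT2, and 12.57 and 12.18 against 12.63 and 12.16 in TET1-KD1 and TET1-KD2, as log2 signal. Its arrays overlapped in both kinds of clone, with log2 changes of 0.12 and 0.02. A much dimmer *CDK1* probe had log2 changes of -0.27 in the control (adjusted p = 0.586) and -0.76 in the knockdown clones (adjusted p = 0.237). *CCNA2*, which encodes cyclin A2 of S and G2 phase, had log2 signals of 11.24 and 11.45 untreated and 11.52 and 11.56 treated in the control clones, and of 11.76 and 11.69 untreated and 11.48 and 11.39 treated in the knockdown clones. Its treated arrays lay above the untreated ones in the control clones and below them in the knockdown clones, and neither log2 change, 0.20 and -0.29, passed the test. *CDC25C*, a phosphatase that activates CDK1, had a log2 signal of 9.59 untreated and 8.46 treated in CONT1 and of 9.57 and 8.67 in CONT2, while TET1-KD1 had 8.20 and 8.95 and TET1-KD2 had 9.66 and 9.34, so that it was lower after treatment in 3 of 4 clones. The log2 change in the control clones was -1.02 (SE 0.45, adjusted p = 0.118, and 0.0494 with the clone as a block). The same change was called on leaving out either untreated knockdown array and was not called on leaving out either untreated control array. *CCNB2* and *CDC25B* had log2 changes of 0.02 and 0.26 in the control and of -0.28 and -0.47 in the knockdown clones.

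*FOXM1*, the transcription factor that activates many genes of the list, was the only member called lower in both kinds of clone. Its log2 signal without drug was 11.17 and 11.27 in CONT1 and CONT2 and 11.36 and 11.32 in TET1-KD1 and TET1-KD2. After 5-aza-dC it was 10.73, 10.62, 10.77 and 10.44 in the same order. Every treated array lay below every untreated array. The log2 change was -0.54 (1.46-fold lower, SE 0.17, adjusted p = 0.0407) in the control clones and -0.73 (1.66-fold lower, SE 0.17, adjusted p = 0.0399) in the knockdown clones. The difference between the 2 responses was -0.19 (adjusted p = 0.666). In the control clones the call was lost on leaving out any of the 4 control arrays or either untreated knockdown array (adjusted p = 0.0559 to 0.184). In the knockdown clones it was lost on leaving out 7 of the 8 arrays in turn, all except the treated TET1-KD1 array (adjusted p = 0.0706 to 0.161), and on the 6 arrays of the first slide (adjusted p = 0.0706).

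Of the 8 mitotic kinases and their partners, *PLK1* and *NEK2* were called lower in the control clones and none was called in the knockdown clones. *PLK1*, a kinase needed for centrosome maturation and mitotic exit, had log2 signals of 10.99 in CONT1 and 10.92 in CONT2 untreated and of 10.02 and 9.96 treated. In TET1-KD1 and TET1-KD2 it read 10.83 and 10.97 untreated and 10.34 and 10.37 treated. All treated arrays lay below all untreated arrays, and the treated control arrays were lowest. The fall in the control clones was 1.95-fold (log2 change -0.97, SE 0.14, adjusted p = 0.00305) and stayed called in all 24 alternatives (-1.34 to -0.50, adjusted p = 0.000857 to 0.0347). In the knockdown clones the log2 change of -0.55 narrowly missed the threshold (SE 0.14, adjusted p = 0.056). A second *PLK1* probe (A_33_P3298387, in hg19 at chr16:23692251-23692310 on the plus strand) read 8.28, 8.29, 6.68 and 6.47 in the control clones, the first pair untreated and the second treated, and 8.21, 8.29, 7.83 and 7.79 in the knockdown clones, as log2 signal. This probe fell 3.27-fold in the control clones (log2 change -1.71, SE 0.15, adjusted p = 0.00048) and had a log2 change of -0.44 in the knockdown clones (adjusted p = 0.112).

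*NEK2*, a kinase of centrosome separation, had log2 signals of 9.55 and 9.66 untreated and 8.89 and 8.81 treated in the control clones. TET1-KD1 and TET1-KD2 read 9.63 and 9.51 untreated and 9.71 and 9.29 treated, with overlap. It fell 1.69-fold in the control clones (log2 change -0.76, SE 0.18, adjusted p = 0.0186), with the call lost on leaving out any of the 4 control arrays (adjusted p = 0.06 to 0.102). On spike-in scaling its log2 change was -0.25 (straight line, adjusted p = 0.389) or -0.11 (interpolation, adjusted p = 0.702). Its second probe did not show the fall (log2 change 0.00, adjusted p = 0.999). *AURKA*, the Aurora kinase of the spindle poles, read 12.13 and 12.14 untreated and 11.62 and 11.55 treated in the control clones, and 12.48 and 12.28 untreated and 12.47 and 12.07 treated in the knockdown clones. Its control arrays did not overlap, at a log2 change of -0.55 (adjusted p = 0.0532, and 0.0295 with the clone as a block), and its knockdown arrays did, at -0.11. *AURKB*, the kinase of the chromosomal passenger complex, had log2 signals of 10.87 and 11.11 untreated and 10.46 and 10.61 treated in the control clones and of 10.96 and 10.98 untreated and 10.85 and 10.61 treated in the knockdown clones. The treated arrays lay below the untreated ones in both kinds of clone, with log2 changes of -0.46 (adjusted p = 0.0699) and -0.24 (adjusted p = 0.407). *BIRC5*, which encodes survivin of the same complex, read 15.05, 15.21, 14.70 and 14.77 in the control clones and 15.03, 15.23, 14.52 and 14.58 in the knockdown clones, untreated before treated. Again no treated array reached an untreated one, and the log2 changes were -0.40 (adjusted p = 0.0762) and -0.58 (adjusted p = 0.0584). *PLK4*, the kinase of centriole duplication, read 8.03 untreated and 7.26 treated in CONT1 and 8.40 and 7.63 in CONT2, while TET1-KD1 had 8.94 and 8.55 and TET1-KD2 had 8.55 and 8.06, and was thus lower in each clone. *TPX2*, which activates Aurora A, had log2 changes of -0.26 in the control and -0.18 in the knockdown clones, and *CDCA8*, the passenger protein borealin, of 0.06 and -0.11.

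**Figure D1:**
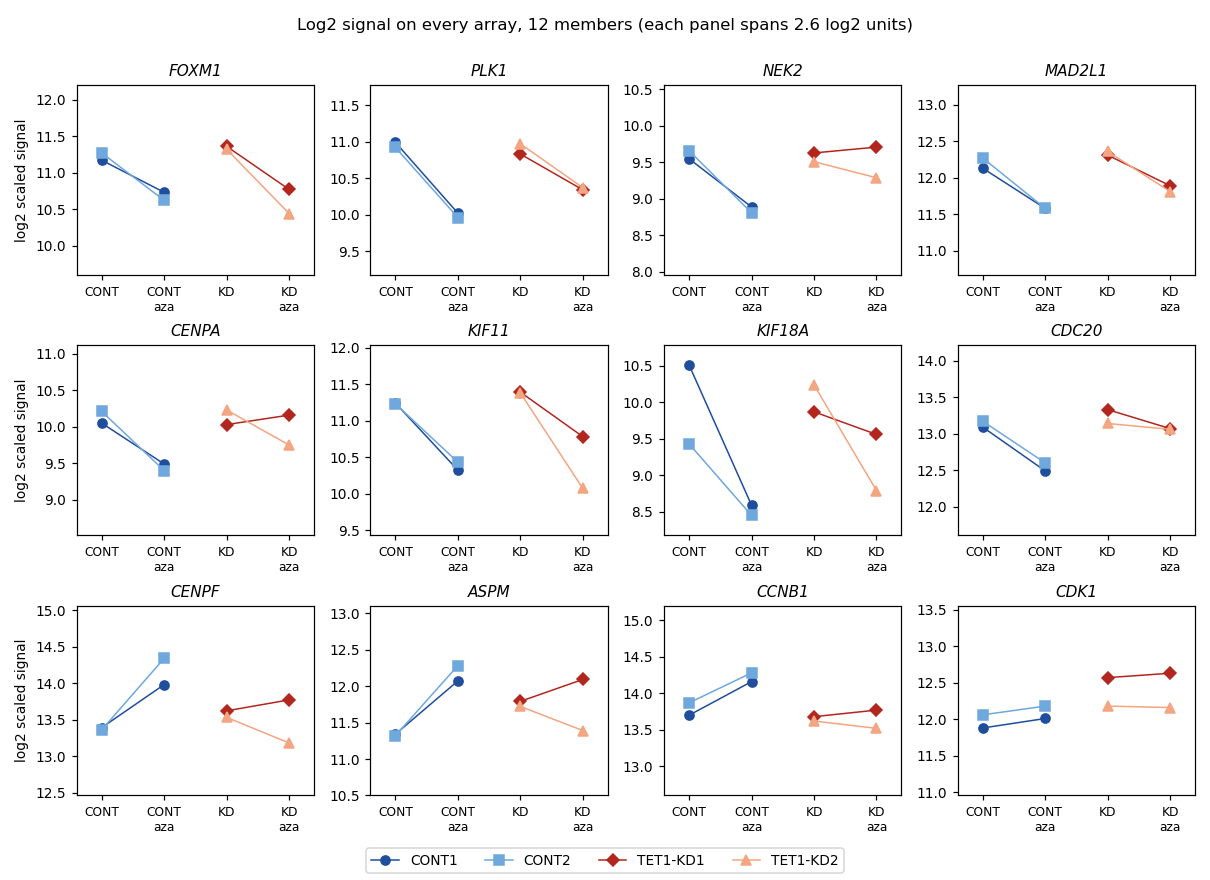
Log2 scaled signal (y axis) on each of the 8 arrays for 12 members, with lines joining the untreated and the treated array of a clone (blue: CONT1 and CONT2, red: TET1-KD1 and TET1-KD2) and every panel spanning 2.6 log2 units. *FOXM1*, *PLK1*, *MAD2L1* and *KIF11* were lower after 5-aza-dC in all 4 clones, *CENPF*, *ASPM* and *CCNB1* were higher in both control clones, and the lines of *CDK1* are nearly flat.

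In the spindle checkpoint and outer kinetochore group, *MAD2L1* was called of 7 members. *MAD2L1* encodes MAD2, which binds and holds back CDC20 at unattached kinetochores. Its log2 signal was 12.13 and 12.27 untreated and 11.58 on both treated arrays of the control clones, and 12.31 and 12.36 untreated and 11.89 and 11.81 treated in the knockdown clones. The treated arrays lay below every untreated array. It fell 1.53-fold in the control clones (log2 change -0.62, SE 0.14, adjusted p = 0.015), with the call lost on leaving out any control array (adjusted p = 0.0572 to 0.103), and had a log2 change of -0.48 in the knockdown clones (adjusted p = 0.0781). *BUB1*, a checkpoint kinase at the kinetochore, read 11.60, 11.85, 11.53 and 11.72 in the control clones and 11.95 to 12.03 over the 4 arrays of the knockdown clones, untreated before treated in the former. Treated and untreated control arrays overlapped, and the log2 changes were -0.10 and 0.05. *BUB1B*, which encodes BUBR1 of the mitotic checkpoint complex, had log2 changes of -0.10 in the control and -0.50 in the knockdown clones (adjusted p = 0.0811). *NUF2* and *NDC80*, subunits of the complex that grips microtubules, had log2 changes of -0.43 and -0.28 in the control clones and of 0.26 and 0.00 in the knockdown clones. *NUF2* read 9.84 and 10.08 untreated and 9.41 and 9.63 treated in CONT1 and CONT2, and 10.49 and 10.22 untreated and 10.88 and 10.34 treated in TET1-KD1 and TET1-KD2. It was lower in both treated control clones and higher in both treated knockdown clones, without a call (difference in response 0.69, SE 0.33, adjusted p = 0.254). *TTK*, a checkpoint kinase, had log2 changes of -0.25 and -0.22, and *BUB3*, which recruits BUB1 and BUBR1, of 0.22 and -0.10. A second *BUB3* probe was lower after treatment in both kinds of clone. Its log2 changes were -0.69 in the control (adjusted p = 0.112) and -0.47 in the knockdown clones (adjusted p = 0.374).

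The 3 centromere proteins went different ways in the control clones. *CENPA*, the histone H3 variant that marks centromeres, read 10.05 and 10.21 untreated and 9.49 and 9.40 treated in CONT1 and CONT2, and 10.03 and 10.23 untreated and 10.16 and 9.75 treated in TET1-KD1 and TET1-KD2, as log2 signal. Its control arrays did not overlap and it fell 1.61-fold there (log2 change -0.69, SE 0.19, adjusted p = 0.0305). The call was lost with the clone as a block (adjusted p = 0.0504) and on leaving out any control array (adjusted p = 0.0847 to 0.15). *CENPF*, a large kinetochore protein that accumulates in G2, read 13.39 and 13.36 untreated and 13.98 and 14.34 treated in the control clones, and 13.62 and 13.53 untreated and 13.77 and 13.18 treated in the knockdown clones. It rose 1.73-fold in the control clones (log2 change 0.79, SE 0.24, adjusted p = 0.0384) and its knockdown arrays overlapped (log2 change -0.10). This call was lost on leaving out any control array or either untreated knockdown array (adjusted p = 0.0559 to 0.166), and the second *CENPF* probe had a log2 change of -0.03 (adjusted p = 0.919). *CENPE*, a kinetochore kinesin, had log2 signals of 9.04 and 9.02 untreated and 9.26 and 9.82 treated in the control clones, and of 10.10 and 9.65 untreated and 9.81 and 9.12 treated in the knockdown clones. It was higher in both treated control clones and lower in both treated knockdown clones, with log2 changes of 0.51 (adjusted p = 0.227) and -0.40 (adjusted p = 0.454).

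Among the 10 spindle kinesins and spindle proteins, *KIF11* and *KIF18A* fell and *ASPM* rose in the control clones. *KIF11* encodes Eg5, the motor that pushes the spindle poles apart. Its log2 signal was 11.24 and 11.23 untreated and 10.32 and 10.43 treated in the control clones, and 11.39 and 11.38 untreated and 10.78 and 10.07 treated in the knockdown clones. Every treated array lay below every untreated one, the treated TET1-KD2 array lowest. It fell 1.81-fold in the control clones (log2 change -0.86, SE 0.24, adjusted p = 0.0318), a call lost on leaving out any control array (adjusted p = 0.0899 to 0.121). Its log2 change in the knockdown clones of -0.96 (1.94-fold lower, SE 0.24) had an adjusted p of 0.0544, and of 0.0923 on the 6 arrays of the first slide. By clone this change was -0.61 in TET1-KD1 and -1.31 in TET1-KD2. *KIF18A*, a motor that shortens spindle microtubules, read 10.51 and 9.43 untreated and 8.59 and 8.45 treated in CONT1 and CONT2, and 9.87 and 10.24 untreated and 9.56 and 8.79 treated in TET1-KD1 and TET1-KD2. It was lower after treatment in each clone, and its untreated control arrays lay further apart than the treated ones. The fall in the control clones was 2.73-fold (log2 change -1.45, SE 0.41, adjusted p = 0.0328), and it was -0.91 without the untreated CONT1 array (adjusted p = 0.139). Without either treated control array the adjusted p was 0.0954 or 0.121. *ASPM*, a protein of the spindle poles, read 11.34 and 11.32 untreated and 12.07 and 12.28 treated in the control clones and 11.79 and 11.72 untreated and 12.09 and 11.39 treated in the knockdown clones. It rose 1.80-fold in the control clones (log2 change 0.85, SE 0.25, adjusted p = 0.0348), and its knockdown arrays overlapped (log2 change -0.02). The call was lost on leaving out any control array or either untreated knockdown array (adjusted p = 0.0518 to 0.14), and its second probe had a log2 change of 0.39 (adjusted p = 0.229). *NUSAP1*, which bundles spindle microtubules, had log2 changes of 0.33 and -0.31, and *KIF14* of -0.44 and -0.50, in the control and the knockdown clones. The other 5, *KIF2C*, *KIF4A*, *DLGAP5*, *HMMR* and *CKAP2*, had log2 changes between -0.46 and 0.23 in the control and between -0.30 and -0.01 in the knockdown clones. Dimmer probes of *KIF4A* and *CKAP2* differed in sign from the brightest in the control clones. *KIF4A* had 0.23 on the brightest and -0.21 on the dimmer probe, and *CKAP2* had -0.30 and 0.56.

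No member was called in the central spindle and cytokinesis group or among the genes of chromosome condensation and structure. *KIF20A*, a motor of the central spindle, read 11.20, 11.21, 11.22 and 11.24 in the control clones, untreated before treated, and 10.82, 11.13, 10.79 and 11.04 in the knockdown clones. Its log2 changes were 0.03 and -0.06, with the control arrays close together and the knockdown arrays overlapping. *ANLN*, a scaffold of the cleavage furrow, had the lowest log2 change of this group in the control clones (-0.67, adjusted p = 0.0654) and was called lower there with the clone as a block, against -0.11 in the knockdown clones. *TOP2A*, the topoisomerase that untangles sister chromatids, read 10.46, 10.54, 10.41 and 10.55 in the control clones, untreated before treated, and 10.51 to 10.85 over the arrays of the knockdown clones, with TET1-KD2 treated lowest and TET1-KD1 treated highest. These arrays overlapped, with log2 changes of -0.02 and -0.03. *MKI67*, which encodes the proliferation antigen Ki-67, read 10.57, 11.03, 10.45 and 10.64 in the control clones and 11.30, 11.08, 11.08 and 10.74 in the knockdown clones on its brightest probe. The log2 changes were -0.26 (adjusted p = 0.392) and -0.28 (adjusted p = 0.471). A dimmer *MKI67* probe (A_24_P346855, in hg19 at chr10:129895641-129895700 on the minus strand) read 9.04, 9.55, 8.43 and 8.82 in the control clones and 9.72, 9.75, 8.74 and 8.65 in the knockdown clones, and it fell 2.06-fold in the latter (log2 change -1.04, SE 0.23, adjusted p = 0.0342). The 3 *MKI67* probes thus gave log2 changes of -1.04 to -0.21 in the knockdown clones. *NCAPH*, a condensin subunit, was among the dimmest members and its log2 signal was 8.65 in untreated CONT1 against 5.89 in untreated CONT2, 5.37 and 5.68 in the treated control clones and 5.09 to 6.46 in the knockdown clones. The log2 change of -1.75 in the control clones (adjusted p = 0.136) rested on that array and was -0.37 without it. Without the untreated CONT2 array it was -3.13, with an adjusted p of 0.00592.

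Of the 5 genes of anaphase promotion and sister separation, *CDC20* was called. *CDC20* encodes the activator of the anaphase-promoting complex that the checkpoint holds back. It read 13.09 and 13.17 untreated and 12.49 and 12.60 treated in the control clones, and 13.33 and 13.14 untreated and 13.07 and 13.06 treated in the knockdown clones, as log2 signal. Treated arrays lay below untreated arrays in both kinds of clone. It fell by 0.59 on the log2 scale in the control clones (SE 0.15, adjusted p = 0.0214), a call lost on leaving out any control array (adjusted p = 0.056 to 0.12). With the GC trend removed and each array's centre kept its log2 change there was -0.12 (adjusted p = 0.598). Its log2 change in the knockdown clones was -0.17 (adjusted p = 0.502). *UBE2C*, the ubiquitin-conjugating enzyme that works with that complex, read 13.79 and 14.04 untreated and 14.36 and 14.56 treated in the control clones, and 14.17 and 13.88 untreated and 14.03 and 13.90 treated in the knockdown clones. Its log2 change in the control clones was 0.55 (adjusted p = 0.0533, and 0.0266 with the clone as a block), opposite in direction to that of *CDC20*, and it was -0.06 in the knockdown clones. *PTTG1*, which encodes securin, the inhibitor of separase, read 14.92, 15.20, 15.19 and 15.47 in the control clones and 15.05, 15.03, 15.03 and 14.76 in the knockdown clones, with overlap and log2 changes of 0.27 and -0.15. *ESPL1*, separase itself, read 11.78 to 12.18 over the control arrays, with treated CONT1 lowest and untreated CONT2 highest, and, untreated before treated, 11.82, 12.21, 11.60 and 11.51 in the knockdown clones. Its log2 changes were -0.20 (adjusted p = 0.432) and -0.45 (adjusted p = 0.184).

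**Figure D2:**
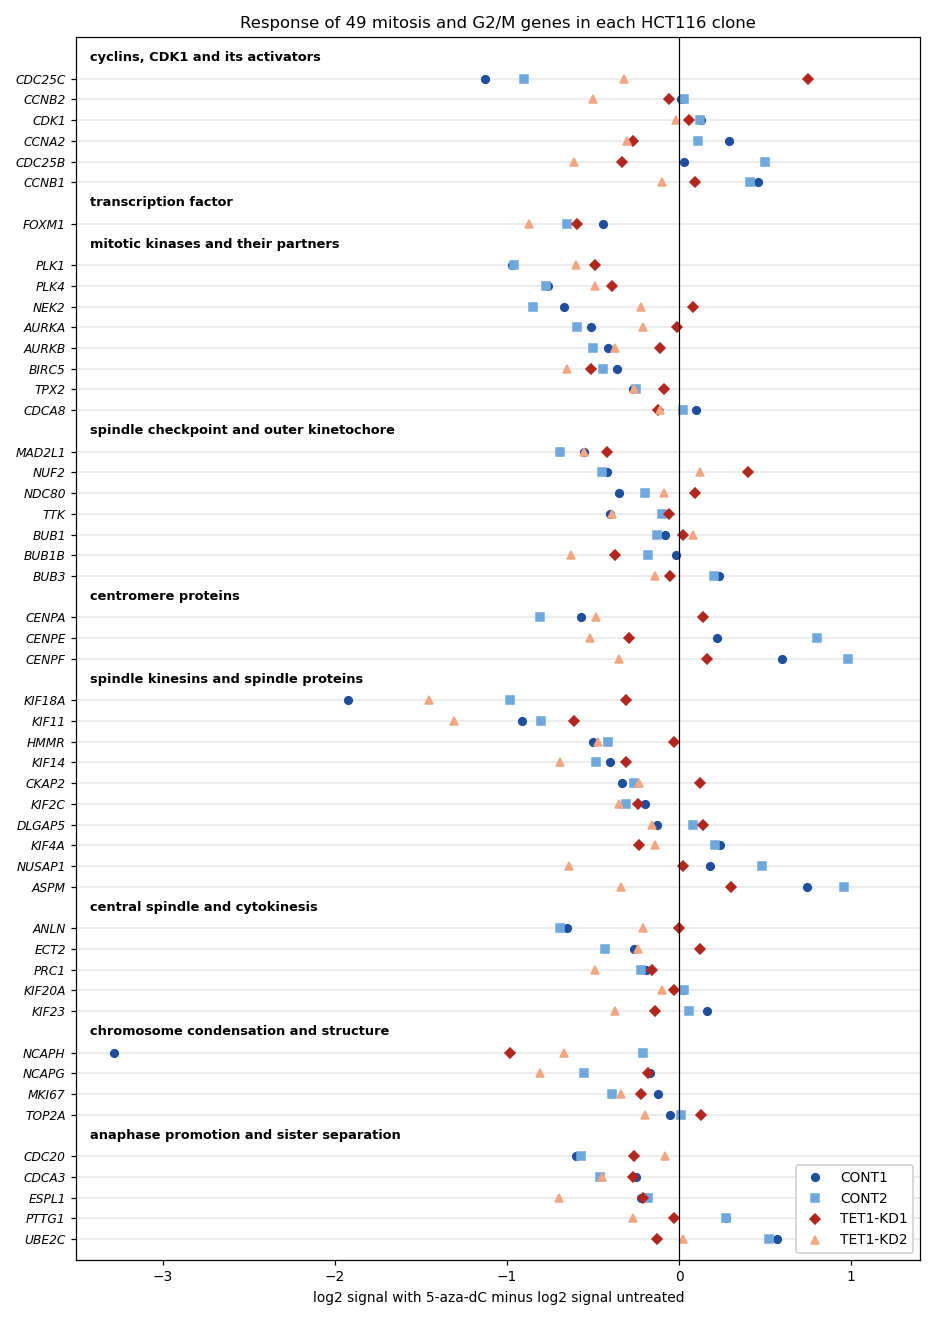
Log2 signal with 5-aza-dC minus log2 signal untreated (x axis) in each of the 4 clones, 1 point per clone and gene, for all 49 members grouped by role. CONT1 and CONT2 lie furthest apart at *NCAPH* and *KIF18A*, and TET1-KD2 (triangles) lies below 0 for 46 of 49 members.

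Clone by clone, the members' median log2 response was -0.22 and -0.23 in CONT1 and CONT2, and -0.11 and -0.35 in TET1-KD1 and TET1-KD2. It was below 0 for 33, 31, 34 and 46 of 49 members in that order, while 51.7% to 54.9% of all gene names lay below 0 in a clone. In all 4 clones at once, 23 of 49 members lay below 0, against 28.9% of all gene names, and 0 lay above 0. The response was above 0 in both control and below 0 in both knockdown clones for 10 of 49 members, against 9.51% of all gene names, and the reverse held for 2, against 5.98%. This split was not tested. Each miRNA against *TET1* was represented by 1 clone, so clone and miRNA cannot be told apart.

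The responses of both kinds of clone were compared directly as the knockdown response minus the control response. No member's brightest probe passed this test in limma, against 3.63% of all gene names with a more positive and 1.64% with a more negative response in the knockdown clones, and the clone block gave 0 as well. At an unadjusted p below 0.05, 1 member, *NEK2*, was more positive (0.69, SE 0.26, adjusted p = 0.169) and 2 were more negative, *CENPF* (-0.88, SE 0.33, adjusted p = 0.172) and *ASPM* (-0.87, SE 0.35, adjusted p = 0.193), while 2652 of 19688 gene names (13.5%) were more positive and 2103 more negative at that threshold. The largest differences were 1.23 for *CDC25C* (SE 0.64, adjusted p = 0.291) and -0.92 for *CENPE* (SE 0.44, adjusted p = 0.257). That of *CDC25C* was 0.50 without the untreated TET1-KD1 array and 1.97 without the untreated TET1-KD2 array. For *PLK1* the brightest probe gave 0.42 (95% interval -0.06 to 0.90) and the second probe 1.27 (SE 0.21, adjusted p = 0.0281). The median difference was -0.04, with 28 of 49 below 0, and its sign turned with the scaling, from -0.27 on the spike-in line to 0.07 with the 75th percentile over probes above background. This comparison contains the treated control arrays of the second slide, and response and slide cannot be told apart in it.

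**Figure D3:**
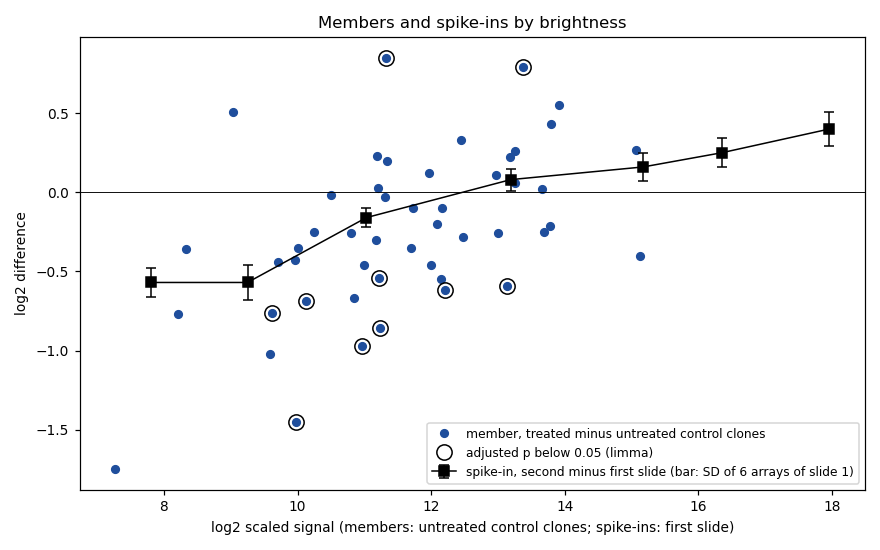
Log2 difference (y axis) against log2 scaled signal (x axis) for the 49 members, treated minus untreated control clones (blue, with called members circled), and for the 7 spike-ins well above background, second minus first slide (black, bars: SD of the 6 arrays of the first slide). The spike-ins run from -0.57 at the dim end to 0.40 at the bright end, and the 8 members called lower all lie below the line that joins them.

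The slide difference of the spike-ins was lowest for dim and highest for bright spike-ins. Interpolating between spike-ins left 2 members called lower in the control clones, *PLK1* and *CDC20*, and a straight line through them left *PLK1* alone, against 9.85% and 8.33% of all probes called lower. On that line the log2 changes of the members whose calls were lost were -0.20 for *FOXM1* (adjusted p = 0.449), -0.35 for *MAD2L1* (adjusted p = 0.143) and -0.23 for *CENPA* (adjusted p = 0.423). They were -0.91 for *KIF18A* (adjusted p = 0.109), -0.41 for *CDC20* (adjusted p = 0.118) and, after interpolation, -0.54 for *KIF11* (adjusted p = 0.148). Base composition also moved with the control response. Over all gene names, its median went from 0.16 for probes under 40% GC to -0.59 for probes of 60% and over, and in the knockdown clones it stayed between -0.09 and -0.04. The members' probes were GC-poor, with 46 of 49 under 50% GC against 76.5% of all gene names, and those under 40% GC had a median log2 change of -0.28 in the control clones. With the GC trend removed and each array's centre kept, 12 members were called lower and 1, *ASPM*, higher, against 20.6% and 19.9% of all probes. The part of slide, brightness and base composition in the response of the control clones was not tested beyond these values.

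Untreated knockdown and control clones differed in no called member, against 0.0102% of all gene names called higher and 0.0102% lower. At an unadjusted p below 0.05, 3 members were higher, *CENPE*, *TTK* and *CCNA2*, and 0 lower, against 2.95% and 5.28% of all gene names. The methods' t-test after Benjamini-Hochberg adjustment gave 0 members, with 0 higher and 1 lower among all probes. The members' median log2 difference was 0.12, against 0.01 over all gene names. It was above 0 for 35 of 49 members and below 0 for 14, while 48.4% of all gene names lay below 0. Of the further mitotic genes 42 of 51 lay above 0 (median 0.16), and of the G1/S and DNA replication genes 38 of 46 (median 0.21). *CENPE* was 0.84 higher (SE 0.31, adjusted p = 0.571), *CCNA2* 0.38 (SE 0.15, adjusted p = 0.586) and *TTK* 0.42 (SE 0.16, adjusted p = 0.585), in each case with both knockdown clones above both control clones. *KIF14* and *PLK4* had differences of 0.57 and 0.53. The lowest differences were -1.17 for *NCAPH* (SE 0.83, adjusted p = 0.682), -0.65 for *CDC25C* (SE 0.45, adjusted p = 0.678), -0.31 for *CDC25B*, -0.24 for *CCNB2* and -0.23 for *KIF20A*. The first 2 rested on 1 array each. *NCAPH* had 0.22 without the untreated CONT1 array, and *CDC25C* had 0.08 without the untreated TET1-KD1 array. For *PLK1* the 95% interval was -0.39 to 0.28, and for *CDK1* it was -0.15 to 0.95.

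Related gene lists were set beside the members. Over all gene names 20.5% were called higher and 21.3% lower in the control clones, and 9.45% and 3.09% in the knockdown clones. Called in either direction in the control clones were 31.4% of the further mitotic genes, against 41.8% of all gene names. Of 51 further mitotic genes, 3 were called higher and 13 lower in the control clones, and 0 higher and 1 lower, the kinesin gene *KIF15* (log2 change -0.83, adjusted p = 0.0443), in the knockdown clones, with median log2 changes of -0.24 and -0.26. In the control clones their smallest adjusted p-values were those of *FAM64A* (-1.25, adjusted p = 0.00149), the chromosomal passenger gene *INCENP* (1.12, adjusted p = 0.00241) and the motor gene *KIF22* (-1.03, adjusted p = 0.00332). The 46 genes of G1/S and DNA replication were lower than the members. Of these, 18 were called lower in the control and 10 in the knockdown clones with none higher, their medians were -0.50 and -0.51, and all 46 lay below 0 in the knockdown clones. They were led in the control clones by the flap endonuclease *FEN1* (-1.49, adjusted p = 0.00101), the clamp loader *RFC5* (-1.14, adjusted p = 0.00306) and *POLA2* (-1.34, adjusted p = 0.00315), and in the knockdown clones by *RFC5* (-0.80, adjusted p = 0.0283), *POLA1* (-0.82, adjusted p = 0.0284) and *PRIM1* (-0.88, adjusted p = 0.0307). The difference between the lists was not tested.

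In the control clones, regulators of the members were called in both directions within each list. Called in either direction there were 27.8% of the MuvB, DREAM and E2F list, 37.5% of the anaphase-promoting complex list and 33.3% of the CDK inhibitor list. Over all gene names the share was 41.8%, above each of these. In the knockdown clones the shares were 11.1%, 0% and 5.56%, against 12.5% of all gene names. Among 18 genes of MuvB, DREAM and E2F, 1 was called higher and 4 lower in the control clones and 0 and 2 in the knockdown clones. *E2F4*, the E2F of the repressive DREAM complex, fell in both (log2 change -1.42, adjusted p = 0.000712, and -1.01, adjusted p = 0.00604). *MYBL2*, the B-MYB activator, fell by 1.17 in the control clones (adjusted p = 0.00306), *TFDP1*, the partner of E2F proteins, by 0.60 (adjusted p = 0.0176), and *E2F1*, an activator of S phase genes, by 0.79 in the knockdown clones (adjusted p = 0.0203). The list of the anaphase-promoting complex and Cdh1 also held *FBXO5* and *UBE2S*. Of its 16 tested genes, 3 were called higher and 3 lower in the control clones. The latter were *ANAPC2* (-1.46, adjusted p = 0.00328), *ANAPC16* (-1.14, adjusted p = 0.00443) and *CDC23* (-0.97, adjusted p = 0.00679). None was called in the knockdown clones, where limma gave 4 lower and 0 higher at an unadjusted p below 0.05 and all 16 lay below 0. Over all gene names 13.1% were lower and 15.9% higher at that threshold, and 55.5% lay below 0. Of 18 tested CDK inhibitors and G2 checkpoint genes, 2 were called higher and 4 lower in the control clones and 1 higher in the knockdown clones. *CDKN2D*, the inhibitor of CDK4 and CDK6 known as p19, rose in both (2.07, adjusted p = 0.000301, and 1.64, adjusted p = 0.00127). *CDKN1A*, the CDK inhibitor p21, fell by 1.41 in the control clones (adjusted p = 0.00256) and was the gene of this list whose response differed between the kinds of clone (1.92, SE 0.27, adjusted p = 0.0185). *WEE1*, the kinase that holds CDK1 inactive, fell by 1.22 in the control clones (adjusted p = 0.00268). For the control clones these calls also lie across the 2 slides.

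**Figure D4:**
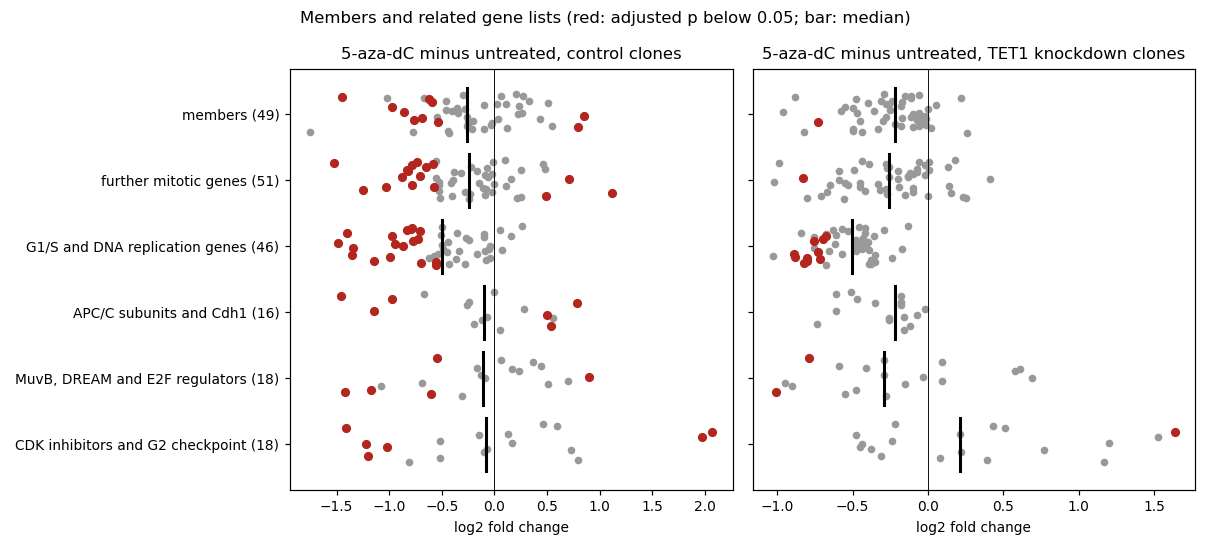
Log2 fold change with 5-aza-dC (x axis) of every tested gene of the members and of 5 related lists, in the control clones (left) and the knockdown clones (right), with called genes in red and black bars at the medians. The G1/S and DNA replication genes lie lowest, at medians of -0.50 and -0.51, and the members lie at -0.26 and -0.23.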

How the data were processed

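RNA of 8 samples (100 ng each) was labeled in one color and hybridized to Agilent 60-base oligonucleotide arrays. The authors deposited scanner output of Agilent Feature Extraction 10.7.3.1, whose processed signal is a background-corrected intensity per spot, annotated on hg19. The deposited value table holds the same intensity rounded to 3 significant digits. Here 58717 spots that were not controls were scaled to each array's 75th percentile (395.5 to 623.7), with a floor of 1, log2-transformed and averaged per probe, and spots with an outlier mark were left out. A probe was tested where at least a 0.5 share of its spots was well above background on both arrays of 1 or more conditions. Group means were fitted over all 8 arrays with limma 3.58.1 in R 4.3.3 (4 residual degrees of freedom), with Benjamini-Hochberg adjustment over 27287 probes and a threshold of 0.05. Different probes of a gene were not averaged, and the brightest tested probe stood for the gene. The methods' t-test was run as an alternative. Named genes were 19 chosen members, in each comparison the 5 members that rose most and the 5 that fell most, every called member where 10 or fewer were called, and the 3 genes of each other list with the smallest adjusted p. Further members are named to complete their group. The members and lists were chosen with earlier results of these data known. Treated and untreated samples with the same number came from the same clone, and their deviations correlated at 0.198 in the control and 0.476 in the knockdown clones over the probes, so the clone was used as a block in an alternative. No spot was saturated, and the number of arrays limits the precision. Promoter windows were read from a RefSeq table of GRCh38.p14, and probe positions of the deposited files (hg19) were not combined with it. Where a symbol had several windows, the window with the lowest genomic start was kept, whatever the strand. Spike-in interpolation and the removal of a GC trend with the centre of each array kept were added after the data were seen.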

Additional observations from a re-analysis of the deposited data

Results flagged for a closer look

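The second *PLK1* probe (A_33_P3298387) had a response to 5-aza-dC that differed between the kinds of clone by 1.27 on the log2 scale (knockdown minus control, SE 0.21, adjusted p = 0.0281 in limma), and both knockdown clones lay above both control clones after treatment. The brightest *PLK1* probe gave 0.42 (adjusted p = 0.249). Both treated control arrays lay on the second slide, so the difference and the slide cannot be told apart.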

How the results depend on the processing

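In the control clones 8 members were called lower and 2 higher. The count called lower was 1 on a spike-in line, 2 on spike-in interpolation, 3 without a filter on dim probes, 14 with an offset of 50, 21 with the GC trend removed, 3 by the methods' t-test and 1 to 10 on leaving out each array in turn. The count called higher was 1 under quantile normalization, 0 without the filter, 4 with the offset, 0 with the GC trend removed, 1 with each array's centre kept, 0 by the methods' t-test, 0 with the mean over a gene's probes and 0 to 2 on leaving out each array. In the knockdown clones, where 1 was called lower, the count was 4 with normexp, 6 with the offset, 7 with the GC trend removed and 2 with the centre kept. It was 0 under quantile normalization, the 75th percentile over probes above background, both spike-in scalings, no filter, the 4 arrays of the contrast alone, the methods' t-test and the first slide alone, and 0 to 2 on leaving out each array. More positive responses in the knockdown clones were called for 0 members, and for 0 to 1 on leaving out each array (*CDC25C* without the untreated TET1-KD2 array). With the clone as a replicate block, 4 members were called higher and 11 lower in the control clones and 1 lower in the knockdown clones. The block added *CCNB1* and *UBE2C* to those higher and *CDC25C*, *PLK4*, *AURKA* and *ANLN* to those lower in the control clones, lost *CENPA* and changed no other call of a member. Over all settings the members' median ranged from -0.473 to 0.035 in the control clones, from -0.466 to -0.1 in the knockdown clones and from 0.062 to 0.218 between untreated clones, and for the difference in response it ranged from -0.27 to 0.137. Over all probes, calls higher and lower in the control clones were 5234 and 6168, against 8929 and 2274 on the spike-in line and 8440 and 2687 on interpolation. They were 5511 and 6385 with the offset and 4786 and 6972 under quantile normalization. With the GC trend removed they were 4311 and 7605, at a median of all probes of -0.228. By the methods' t-test they were 2152 and 2011. Without the filter, over 50543 probes, they were 5184 and 5137. The counts over all probes thus moved with the setting too. In the knockdown clones the calls higher and lower were 2430 and 790, against 2089 and 1110 under quantile normalization, 2679 and 403 with the other 75th percentile and 2330 and 3739 with the GC trend removed, which shifted the median of all probes to -0.304. With normexp they were 2040 and 1131, and with the offset 2156 and 1319. Of 20959 probes above background on all arrays, fitted alone, 3210 were called higher and 4960 lower in the control clones. In the knockdown clones these calls were 612 and 579. The cause of these changes was not tested. With 2 arrays per condition the number of arrays limits the precision.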
